A study of Mus musculus with 30 samples.

Results

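The 32 genes described here encode the steps from glucose uptake to lactate export, together with the enzymes that steer pyruvate towards or away from mitochondria. They were chosen by gene symbol, with earlier results of these data known. All 32 were found among the 53974 genes of the deposited expression table. The series was made from mouse forebrain at stage E13.5 and from neural stem/progenitor cells (NSPCs) grown out of that tissue in medium with EGF and FGF. NSPCs of the C57BL/6 strain received DMSO (the solvent, here the control), crotonate at 10 mM (the salt of a short-chain fatty acid) or MS-275 at 1 µM (entinostat, a drug that blocks class I histone deacetylases) for 24 h, and RNA was sequenced in 4 biological replicates per group. RNA from ICR forebrain explants was compared between 3 crotonate and 3 control libraries, for which the labels give no dose and no duration. RNA of untreated C57BL/6 forebrain was sequenced in 1 library. Chromatin immunoprecipitation (ChIP) was done for lysine crotonylation (Kcr) and lysine acetylation (Kac) in the 3 NSPC groups, and for crotonylation (H3K9cr) or acetylation (H3K9ac) of lysine 9 of histone H3 in untreated C57BL/6 forebrain, with 1 library each.

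In glycolysis a hexokinase traps glucose in the cell, phosphofructokinase commits it to breakdown, aldolase splits it, and the enzymes from GAPDH to pyruvate kinase recover ATP. Pyruvate is then reduced to lactate by lactate dehydrogenase and exported by monocarboxylate transporters, or it enters mitochondria through the MPC carrier and is oxidized by pyruvate dehydrogenase, which the PDK kinases switch off. Neural progenitors of the embryonic forebrain are known for high rates of glycolysis and lactate production, and differentiating neurons for a shift towards oxidative metabolism. Most steps are served by several isoenzymes from separate genes, which differ in tissue and in regulation by oxygen. Hypoxia-inducible factors are known to act on many of these genes through the letters ACGTG or GCGTG in their promoters.

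The promoters of 6 genes are shown because, among members with a promoter in the reference, these had the 6 largest log2 fold changes with MS-275 in either direction. Slc2a3 had no entry. Each line gives the 250 bases before a transcription start in RefSeq's GRCm38.p6 annotation, 5′ to 3′ on the strand of the gene. Capitals mark ACGTG or GCGTG on either strand, so that the other strand reads CACGT or CACGC.
Slc16a3, chr11:120948817-120949066, plus strand: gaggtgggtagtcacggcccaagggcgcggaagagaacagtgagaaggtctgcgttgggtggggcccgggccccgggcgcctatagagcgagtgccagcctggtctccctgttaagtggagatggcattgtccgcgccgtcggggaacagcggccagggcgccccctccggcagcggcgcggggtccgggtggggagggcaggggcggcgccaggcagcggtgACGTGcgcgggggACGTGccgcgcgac
Eno3, chr11:70656926-70657175, plus strand: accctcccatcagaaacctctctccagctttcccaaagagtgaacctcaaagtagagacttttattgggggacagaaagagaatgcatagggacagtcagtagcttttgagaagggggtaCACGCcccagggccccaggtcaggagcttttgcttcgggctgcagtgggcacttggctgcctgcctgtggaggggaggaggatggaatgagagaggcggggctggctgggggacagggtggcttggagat
Eno2, chr6:124769674-124769923, minus strand: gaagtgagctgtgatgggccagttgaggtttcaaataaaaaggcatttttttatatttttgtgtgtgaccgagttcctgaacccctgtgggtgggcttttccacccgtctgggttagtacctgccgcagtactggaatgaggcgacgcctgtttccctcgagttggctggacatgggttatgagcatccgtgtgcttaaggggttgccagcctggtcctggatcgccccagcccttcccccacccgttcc
Pfkfb4, chr9:108991652-108991901, plus strand: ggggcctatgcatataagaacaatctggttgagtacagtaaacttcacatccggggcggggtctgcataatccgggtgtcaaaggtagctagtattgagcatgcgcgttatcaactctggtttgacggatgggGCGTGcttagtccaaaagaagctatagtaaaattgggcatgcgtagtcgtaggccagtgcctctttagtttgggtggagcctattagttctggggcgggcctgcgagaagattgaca
Hk2, chr6:82774455-82774704, minus strand: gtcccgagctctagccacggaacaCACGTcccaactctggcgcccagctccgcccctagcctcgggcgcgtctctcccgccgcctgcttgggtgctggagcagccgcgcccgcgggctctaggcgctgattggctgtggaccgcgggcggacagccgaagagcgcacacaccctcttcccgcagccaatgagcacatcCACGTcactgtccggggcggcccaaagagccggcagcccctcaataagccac
Slc2a1, chr4:119108495-119108744, plus strand: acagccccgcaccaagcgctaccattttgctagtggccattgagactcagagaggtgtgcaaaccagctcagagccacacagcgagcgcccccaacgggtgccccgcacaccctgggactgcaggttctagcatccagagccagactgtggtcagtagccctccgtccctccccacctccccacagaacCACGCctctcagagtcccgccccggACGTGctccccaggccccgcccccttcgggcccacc

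Slc16a3 held ACGTG at 27 and 14 bases before the start, and Slc2a1 held GCGTG at 61 bases and ACGTG at 36 bases before it. Hk2 held ACGTG at 226 and 52 bases before the start, Eno3 held GCGTG at 130 bases and Pfkfb4 held it at 117 bases, and the Eno2 window held neither run. For Eno3, Pfkfb4 and Slc16a3 the start used lies inside the annotated gene, downstream of another start. Of 51 promoters of 31 members in the reference, 72.5% held ACGTG or GCGTG, against 38.6% of all 32851 promoters of the same length. ACGTG alone was found in 35.3% of member promoters against 16.6% of all, and GCGTG in 51.0% against 28.2%. CACGTG, which contains ACGTG on both strands, stood in 11.8% against 6.02%, GGGCGG in 51.0% against 32.7%, CCAAT in 37.3% against 33.8% and TATAAA in 3.92% against 12.4%. Both strands were searched for each motif. Member promoters were also richer in G and C, with a median of 60.4% against 52.4% over all promoters, and the part of base composition in these shares was not tested.

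The expression values are TPM, abundances scaled per transcript length and to a common total, on which genes can be compared. Sequencing depth is not known, as the table gives no read counts. In every NSPC group all 10 markers of neural progenitors reached 1 TPM, led by Fabp7 at a mean of 4946 TPM in control, 5005 with crotonate and 6898 with MS-275. Their sum was 9649 to 10184 TPM in the control libraries, 9035 to 9921 TPM after crotonate and 13571 to 14244 TPM after MS-275, with 1 of 10 higher and 1 lower with crotonate and 3 higher and 4 lower with MS-275. The summed neuron markers were 314 to 334 TPM in the control libraries, 281 to 308 TPM after crotonate and 379 to 396 TPM after MS-275, against 3205 in the forebrain, with Map2 highest in NSPCs and Slc17a6 at 0 in the control group. The 5 summed astrocyte markers, led by Aldh1l1 in all 3 groups, were 70.9 to 84.8 TPM in the control libraries, 121 to 138 TPM after crotonate and 125 to 154 TPM after MS-275, and none was at 0. The summed oligodendrocyte lineage markers were 53.2 to 64.7 TPM in control, 64.6 to 68.1 TPM after crotonate and 94.6 to 110 TPM after MS-275, and the pericyte markers 16 to 19.0, 16.5 to 20.2 and 30.2 to 33.7 TPM. Endothelial markers summed to at most 5.65 TPM in any NSPC library. In the test described below, 5 of 6 tested neuron markers were higher and 1 lower with crotonate, and 5 were higher with MS-275. Map2 had a mean of 303 TPM in control and 244 TPM with crotonate. Of 5 astrocyte markers 4 were higher with crotonate and 3 with MS-275. After quantile normalization 3 neuron and 3 astrocyte markers were higher with crotonate. Over all genes tested 32.3% were higher and 15.9% lower with crotonate, and 37.4% and 27.6% with MS-275. All 10 proliferation markers were lower with both agents, and their sum was 2241 to 2404 TPM in control, 1457 to 1695 TPM after crotonate and 906 to 1019 TPM after MS-275. In bulk RNA, fewer cells of a type and less RNA per cell cannot be told apart, and the part of these markers in the results below was not tested. Each erythroid and microglial marker had a mean below 1 TPM in every NSPC group, with the globins Hbb-bt, Hbb-bs and Hbb-y at 0 in all 3 groups.

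NSPC control replicate 4 held the highest control value of 22 of the 32 members, where replicates 1, 2 and 3 held that of 7, 2 and 1 members. The lactate exporter Slc16a3, the kinase Pdk1 and the phosphofructokinase Pfkl, whose values are given below, were among the members with a wide gap. By Dixon's criterion, described at the end, only Slc2a1 was flagged in this library. The 27 genes of a hypoxia response list summed to 1801 TPM in this library and to 1445, 1553 and 1393 TPM in control replicates 1 to 3. Vegfa, a growth factor induced by low oxygen, stood at 112 TPM there and at 65.6, 63.8 and 48.8 TPM in the others. With crotonate, replicate 4 also held the highest value of the most members, 14 of 32. The hypoxia list sum of crotonate replicate 4 was 1859 TPM, against 1692, 1773 and 1666 TPM in crotonate replicates 1 to 3. With MS-275, replicate 4 held the highest value of 8 members. The count of highest values was not made over all genes. Where leaving out control replicate 4 changed a call, the value without it is given beside the result. All fits without control replicate 4 kept replicate 4 of the treated groups. Same-numbered libraries of different groups had correlated deviations (r from 0.119 to 0.241), so leaving out the control library alone can shift a difference.

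All 32 members reached 1 TPM in 4 or more of the 12 NSPC libraries, the filter applied before testing. The groups were compared with limma on log2(TPM + 1) over 14857 genes with Benjamini-Hochberg adjustment, at a threshold of 0.05, and the NSPC fold changes below are on that scale with SE. With crotonate 11 members were higher and 8 lower, and 13 did not pass the test. Over all genes tested 32.3% were higher and 15.9% lower. After median-of-ratios scaling 11 members were higher and 11 lower with crotonate, against 23.6% and 28.4% of all genes, and after quantile normalization 10 were higher and 6 lower, against 20.8% and 24.8%. The share of lower members was therefore above that of all genes as deposited (25.0%) and below it after quantile normalization (18.8%). With MS-275 15 members were higher and 7 lower, where 37.4% of all genes were higher and 27.6% lower. The median log2 fold change was 0.14 for members and 0.09 for all genes with crotonate, and 0.12 and 0.08 with MS-275. After median-of-ratios scaling the median over all genes was -0.03 with crotonate and -0.01 with MS-275, and after quantile normalization it was -0.05 for each. Of all calls 67.1% were higher with crotonate, and 45.4% and 45.6% after these scalings, and 57.5% with MS-275, against 48.0% and 46.5%. Among the members' calls 57.9% were higher with crotonate, against 50.0% and 62.5%, and 68.2% with MS-275, against 65.0% and 72.0%. The groups' libraries did not overlap for 19 members with crotonate, against 44.2% of all genes, and for 19 members with MS-275, against 58.5%. Without control replicate 4 the counts were 13 higher and 7 lower with crotonate, and 16 higher and 6 lower with MS-275. Both treatments share the control libraries, so their values are given side by side below. With the replicate number as a block the counts were 11 higher and 11 lower with crotonate and 16 higher and 8 lower with MS-275.

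**Figure D1:**
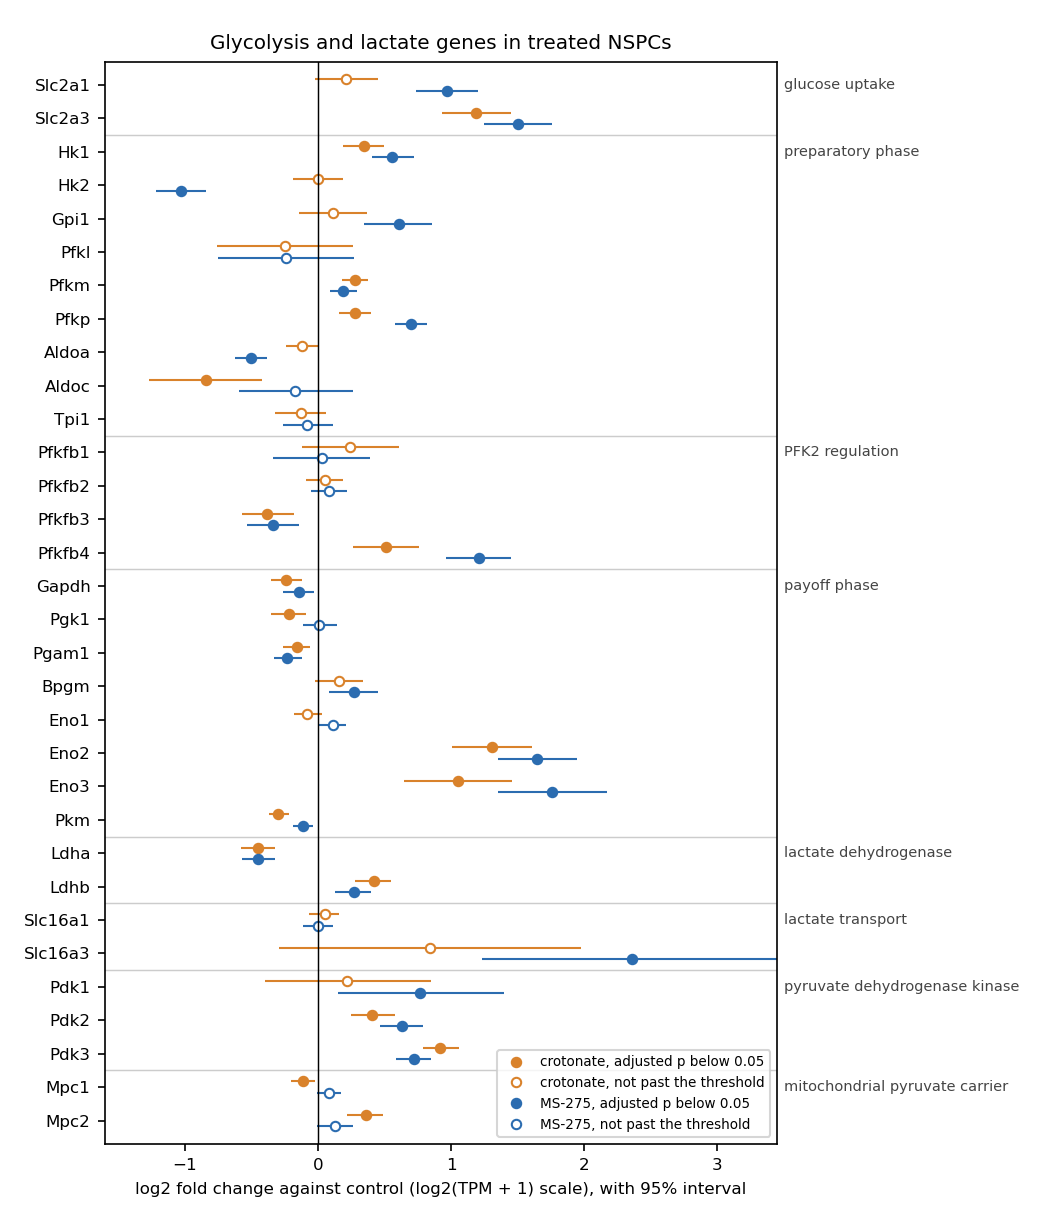
Log2 fold change of each of the 32 genes against control NSPCs on the log2(TPM + 1) scale, with 95% intervals from limma (4 libraries per group), for crotonate (orange) and MS-275 (blue). Filled circles passed the adjusted threshold and open circles did not. Eno2, Eno3, Slc2a3 and Pfkfb4 lie to the right for both agents, and Hk2 lies at -1.03 with MS-275 alone.

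Both glucose transporters were higher after MS-275, and Slc2a3 was higher after crotonate as well. Slc2a3 (GLUT3), a high-affinity transporter known from neurons, stood at 12.6, 15.2, 13.6 and 19.7 TPM in control replicates 1 to 4, at 38.9, 35.7, 32 and 36.3 TPM with crotonate and at 46.7, 50.3, 41.3 and 40.4 TPM with MS-275. All treated libraries lay above all controls, with a log2 fold change of 1.19 ± 0.12 for crotonate (adjusted p = 5.96e-06) and 1.5 ± 0.12 for MS-275 (adjusted p = 2.42e-07). Slc2a1 (GLUT1), the transporter of barrier vessels and dividing cells, stood at 18.3, 18.5, 17.3 and 24.8 TPM in control, at 22.6, 19.3, 24.4 and 25.3 TPM with crotonate and at 40.1, 39.0, 41.2 and 36.6 TPM with MS-275. The MS-275 libraries lay above all others, with a difference from control of 0.97 ± 0.11 (adjusted p = 4.66e-06), while crotonate overlapped control at 0.21 ± 0.11 (adjusted p = 0.117). Without control replicate 4 the crotonate difference of Slc2a1 was 0.32 (adjusted p = 0.00747), and without crotonate replicate 2 its adjusted p was 0.0419. With the replicate block the crotonate difference of Slc2a1 did not pass the test (adjusted p = 0.109).

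Among the hexokinases the ubiquitous Hk1 was higher with both agents, and the inducible Hk2 was lower with MS-275. Hk1 stood at 63.8, 57.3, 57.6 and 65.9 TPM in control, at 79.8, 80.9, 80.4 and 70.8 TPM with crotonate and at 101, 94.2, 87.6 and 81.4 TPM with MS-275. No treated library of Hk1 fell into the control range, and its log2 fold change was 0.35 ± 0.07 with crotonate (adjusted p = 0.00154) and 0.56 ± 0.07 with MS-275 (adjusted p = 1.64e-05). Hk2 stood at 8.5, 9.62, 9.97 and 10.3 TPM in control, at 10.2, 8.37, 10.0 and 9.77 TPM with crotonate and at 3.84, 4.72, 4.29 and 3.91 TPM with MS-275. Every MS-275 library of Hk2 lay below every other library (-1.03 ± 0.09 against control, adjusted p = 4.70e-07), and the crotonate interval of Hk2 ran from -0.19 to 0.19. After quantile normalization Hk2 passed as lower with crotonate (-0.26, adjusted p = 0.0331). Gpi1, the isomerase that follows, stood at 511, 533, 453 and 693 TPM in control, at 638, 573, 523 and 615 TPM with crotonate and at 844, 933, 699 and 835 TPM with MS-275. The MS-275 libraries of Gpi1 lay above all others (0.61 ± 0.12 against control, adjusted p = 6.57e-04), and crotonate overlapped control.

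The 3 phosphofructokinase subunits differed from each other. Pfkp, the platelet-type subunit, stood at 46.8, 39.5, 41.9 and 43.0 TPM in control, at 52.7, 51.5, 54.5 and 49.3 TPM with crotonate and at 74.9, 67.8, 67.8 and 69.3 TPM with MS-275. The 3 groups did not overlap, and the log2 fold change of Pfkp was 0.28 ± 0.06 with crotonate (adjusted p = 0.00126) and 0.70 ± 0.06 with MS-275 (adjusted p = 2.50e-07). Pfkm, the muscle-type subunit, was higher by 0.28 ± 0.05 with crotonate (adjusted p = 3.25e-04) and by 0.19 ± 0.05 with MS-275 (adjusted p = 0.00300, and 0.0969 after median-of-ratios scaling). Pfkl, the liver-type subunit, stood at 20.8, 26.4, 19.4 and 41.6 TPM in control, at 26.1, 19.2, 15.3 and 28.2 TPM with crotonate and at 25.7, 22.3, 17.1 and 22.7 TPM with MS-275. Its groups overlapped, with differences of -0.25 ± 0.23 and -0.24 ± 0.23. Without control replicate 4 the differences of Pfkl were -0.03 and -0.02, while crotonate replicate 4, also the highest of its group, was kept.

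Of the aldolases Aldoc was lower with crotonate and Aldoa with MS-275. Aldoc, the brain-type aldolase, stood at 90.8, 51.3, 66.3 and 68.7 TPM in control, at 47.4, 29.0, 40 and 35.5 TPM with crotonate and at 80.8, 45.6, 61.3 and 58.5 TPM with MS-275. All crotonate libraries of Aldoc lay below all controls (-0.84 ± 0.20, adjusted p = 0.00348). With MS-275 Aldoc overlapped control (-0.17 ± 0.20, adjusted p = 0.470), and with the replicate block the adjusted p was 0.00646. Aldoa, the main aldolase of most cells, stood at 692, 709, 660 and 793 TPM in control, at 662, 639, 627 and 687 TPM with crotonate and at 506, 519, 468 and 523 TPM with MS-275. The MS-275 libraries of Aldoa lay below all others (-0.50 ± 0.05 against control, adjusted p = 4.73e-06), and the crotonate difference was -0.12 ± 0.05 (adjusted p = 0.0808, 0.0106 with the replicate block, 0.0336 without control replicate 3). Tpi1, triose phosphate isomerase, stood at 322, 313, 289 and 388 TPM in control, at 290, 291, 282 and 328 TPM with crotonate and at a mean of 310 ± 26.8 TPM with MS-275 (SD, n = 4). The groups of Tpi1 overlapped, with differences of -0.13 ± 0.09 and -0.08 ± 0.09, and the crotonate difference had an adjusted p of 0.230, or 0.0197 with the replicate block.

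The PFKFB enzymes make and break the sugar bisphosphate that activates phosphofructokinase, and of their 4 genes Pfkfb4 was higher and Pfkfb3 lower with both agents. Pfkfb4 stood at 2.25, 1.54, 1.58 and 1.67 TPM in control, at 2.57, 2.65, 2.98 and 3.49 TPM with crotonate and at 4.67, 5.42, 5.61 and 5.70 TPM with MS-275. The groups of Pfkfb4 formed 3 steps without overlap, with 0.51 ± 0.11 for crotonate (adjusted p = 0.00286) and 1.21 ± 0.11 for MS-275 (adjusted p = 1.26e-06). After quantile normalization the crotonate difference of Pfkfb4 did not pass the test (adjusted p = 0.644). Pfkfb3, the isoform with the strongest kinase activity, stood at 29.2, 32.5, 30.3 and 33.4 TPM in control, at 20.8, 24.4, 25.6 and 24.8 TPM with crotonate and at 20.7, 28.1, 25.2 and 24.9 TPM with MS-275. Both treated groups of Pfkfb3 lay below all controls (-0.38 ± 0.09, adjusted p = 0.00386, and -0.34 ± 0.09, adjusted p = 0.00505). Pfkfb1 and Pfkfb2, at control means of 3.99 and 16 TPM, passed the test with neither agent.

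**Figure D2:**
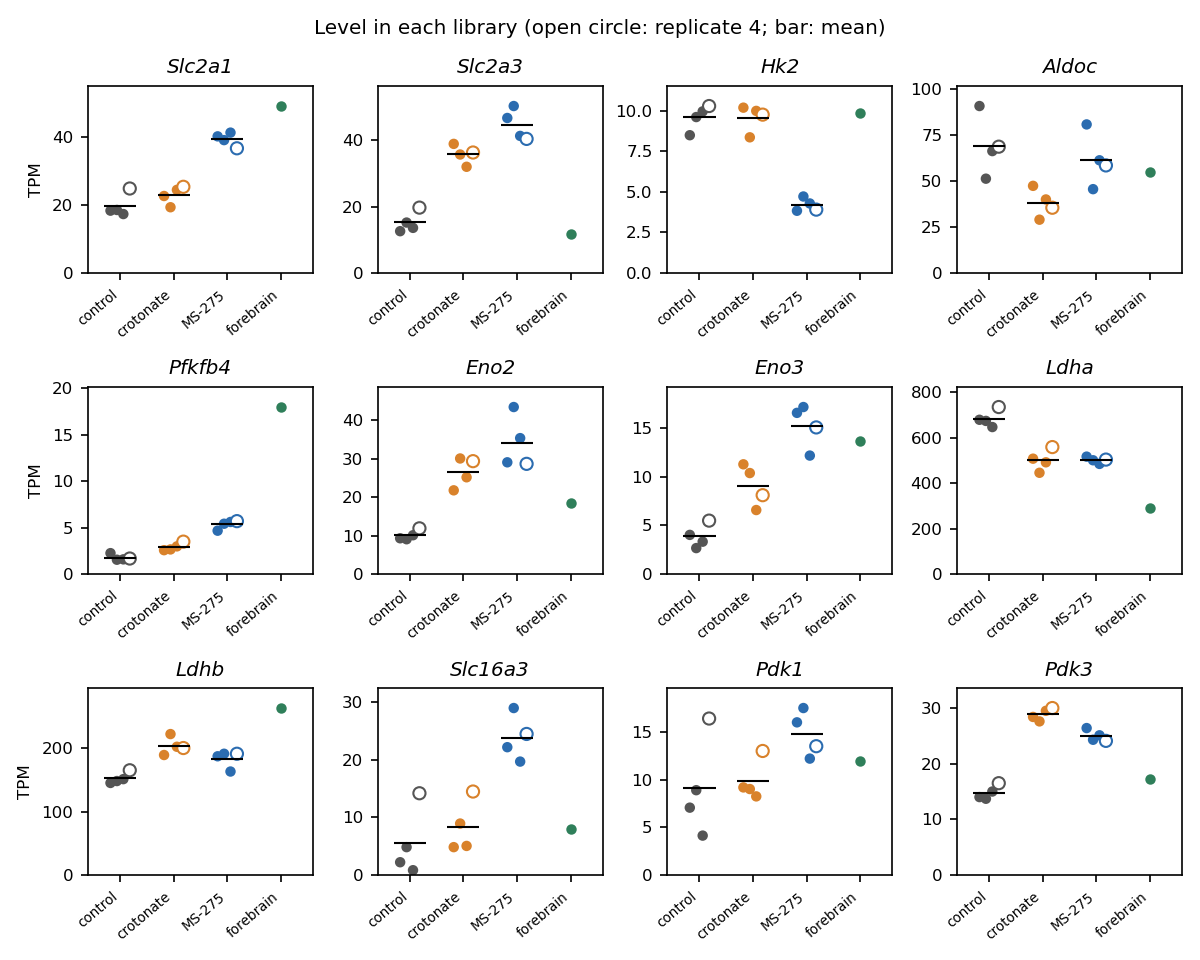
TPM of 12 members in each library of control, crotonate and MS-275 NSPCs (4 points per group, replicate 4 open, bar at the mean) and in the single forebrain library. Each axis starts at 0. For Eno2, Eno3, Slc2a3 and Pdk3 no treated library lies in the control range, and for Slc16a3 and Pdk1 control replicate 4 lies at 14.2 and 16.4 TPM, far above the other controls.

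In the ATP-yielding steps Gapdh, Pgk1, Pgam1 and Pkm were lower with crotonate and the minor enolases were higher with both agents. Eno2, neuron-specific enolase, stood at 9.31, 9.06, 10.1 and 11.9 TPM in control, at 21.8, 30.1, 25.2 and 29.4 TPM with crotonate and at 29.1, 43.5, 35.4 and 28.7 TPM with MS-275. Every treated library of Eno2 lay above every control, by 1.31 ± 0.14 with crotonate (adjusted p = 9.47e-06) and 1.65 ± 0.14 with MS-275 (adjusted p = 4.21e-07). Eno3, the muscle-type enolase, stood at 4.03, 2.67, 3.33 and 5.50 TPM in control, at 11.3, 10.4, 6.59 and 8.12 TPM with crotonate and at 16.6, 17.2, 12.2 and 15.1 TPM with MS-275. Its 3 groups did not overlap, with 1.05 ± 0.19 for crotonate (adjusted p = 5.59e-04) and 1.76 ± 0.19 for MS-275 (adjusted p = 3.62e-06). Eno1, the main enolase at a control mean of 969 TPM, did not pass the test with crotonate (-0.08 ± 0.05, adjusted p = 0.205) or MS-275 (0.11 ± 0.05, adjusted p = 0.0672). With the replicate block Eno1 passed for both agents, at adjusted p-values of 0.0315 and 0.00464, lower with crotonate and higher with MS-275. The MS-275 difference of Eno1 also passed without control replicate 4 (0.14, adjusted p = 0.0236) and without crotonate replicate 4 (adjusted p = 0.0454).

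Pkm, pyruvate kinase of non-liver cells, stood at 966, 927, 902 and 963 TPM in control, at 803, 745, 762 and 750 TPM with crotonate and at 902, 870, 855 and 847 TPM with MS-275. The crotonate libraries of Pkm were the lowest (-0.30 ± 0.03, adjusted p = 1.75e-05), and those of MS-275 lay between them and the controls, without overlap though the highest MS-275 and the lowest control value both round to 902 TPM (-0.11 ± 0.03, adjusted p = 0.0101, and 0.147 after quantile normalization). Pgk1, which makes the pathway's first ATP, stood at 538, 563, 528 and 614 TPM in control, at 457, 490, 456 and 524 TPM with crotonate and at 542, 598, 539 and 585 TPM with MS-275. All crotonate libraries of Pgk1 lay below all controls (-0.22 ± 0.06, adjusted p = 0.00771, and 0.352 after quantile normalization), while MS-275 overlapped control (0.01 ± 0.06). Pgam1, phosphoglycerate mutase, stood at 534, 516, 506 and 586 TPM in control, at 475, 459, 471 and 506 TPM with crotonate and at 454, 471, 440 and 464 TPM with MS-275. It was lower by 0.16 ± 0.05 on the log2 scale with crotonate, where the highest treated and the lowest control library both round to 506 TPM and overlapped, and with MS-275 the difference was -0.23 ± 0.05 (adjusted p = 9.29e-04). After quantile normalization the crotonate difference of Pgam1 had an adjusted p of 0.821, against 0.0118 before. Gapdh, the most abundant member with a control mean of 1751 TPM, was lower with crotonate (-0.24 ± 0.05, adjusted p = 0.00247). With MS-275 Gapdh overlapped control at -0.14 ± 0.05 (adjusted p = 0.0275), and did not pass without control replicate 4 (adjusted p = 0.0808), control replicate 1 (0.0558) or MS-275 replicate 3 (0.0817). With the replicate block the MS-275 difference of Gapdh had an adjusted p of 0.00120, and with no filter or no variance trend it did not pass. Bpgm, bisphosphoglycerate mutase, was higher with MS-275 (0.27 ± 0.08, adjusted p = 0.0140, and 0.105 after median-of-ratios scaling), and with crotonate it passed only in the fit of 2 groups alone and without MS-275 replicate 3 (adjusted p = 0.0366). Gapdh, Pgk1, Pgam1, Eno1, Tpi1, Ldha and Pkm have near-identical processed copies in the mouse genome. How the quantification with Salmon shared reads among these copies was not examined here, so the levels of these genes are uncertain in that respect.

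The lactate dehydrogenases moved in opposite directions with both agents. Ldha, the subunit that favours lactate production, stood at 678, 673, 646 and 734 TPM in control, at 507, 445, 491 and 558 TPM with crotonate and at 516, 500, 484 and 503 TPM with MS-275. All treated libraries of Ldha lay below all controls, with -0.45 ± 0.06 for each agent (adjusted p = 5.48e-05 for crotonate and 2.61e-05 for MS-275). Ldhb, the subunit that favours pyruvate, stood at 145, 148, 151 and 165 TPM in control, at 189, 222, 202 and 200 TPM with crotonate and at 187, 191, 163 and 191 TPM with MS-275. The crotonate libraries of Ldhb lay above all controls (0.42 ± 0.06, adjusted p = 1.61e-04), and with MS-275 1 library fell into the control range (0.27 ± 0.06, adjusted p = 0.00237).

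Of the lactate transporters Slc16a3 was higher with MS-275 and Slc16a1 passed with neither agent. Slc16a3 (MCT4), known as the exporter of strongly glycolytic cells, stood at 2.22, 4.84, 0.835 and 14.2 TPM in control, at 4.84, 8.94, 5.05 and 14.5 TPM with crotonate and at 22.2, 29.0, 19.7 and 24.5 TPM with MS-275. All MS-275 libraries of Slc16a3 lay above all others, with a difference from control of 2.36 ± 0.52 (adjusted p = 0.00151), or 2.92 without control replicate 4. With crotonate Slc16a3 overlapped control at 0.84 ± 0.52 (adjusted p = 0.204, or 0.0702 with the replicate block). Without control replicate 4 the difference was 1.40 (adjusted p = 0.0123), while crotonate replicate 4, also the highest of its group, was kept. Slc16a1 (MCT1) stood at 32.2, 31.4, 33.2 and 31.0 TPM in control, at 32.9, 33.2, 31.7 and 34.1 TPM with crotonate and at 34.1, 31.7, 32.8 and 29.1 TPM with MS-275. Its groups overlapped, and the 95% intervals of its differences ran from -0.07 to 0.16 with crotonate and from -0.11 to 0.11 with MS-275.

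Of the kinases that inhibit pyruvate dehydrogenase Pdk2 and Pdk3 were higher with both agents and Pdk1 with MS-275. Pdk3 stood at 14.0, 13.7, 15 and 16.5 TPM in control, at 28.4, 27.6, 29.5 and 30.0 TPM with crotonate and at 26.4, 24.3, 25.1 and 24.1 TPM with MS-275. The 3 groups of Pdk3 did not overlap, with 0.92 ± 0.06 for crotonate (adjusted p = 2.00e-07) and 0.72 ± 0.06 for MS-275 (adjusted p = 4.17e-07). Pdk2 stood at 17.6, 17.5, 15.2 and 16.7 TPM in control, at 23.9, 22.8, 23.9 and 20.1 TPM with crotonate and at 28.3, 26.9, 23.4 and 27.3 TPM with MS-275. All treated libraries of Pdk2 lay above all controls (0.41 ± 0.07, adjusted p = 5.88e-04, and 0.63 ± 0.07, adjusted p = 9.00e-06). Pdk1, known as a target of hypoxia-inducible factors, stood at 7.06, 8.89, 4.13 and 16.4 TPM in control, at 9.18, 9.01, 8.24 and 13.0 TPM with crotonate and between 12.2 and 17.5 TPM with MS-275. Pdk1 overlapped control in both groups, with 0.22 ± 0.29 for crotonate (adjusted p = 0.553) and 0.77 ± 0.29 for MS-275 (adjusted p = 0.0313). Its MS-275 difference was 1.08 without control replicate 4 (adjusted p = 9.21e-04), and did not pass without control replicate 1 or 3 or without MS-275 replicate 1 or 2 (adjusted p up to 0.0898).

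Of the pair that forms the mitochondrial pyruvate carrier, Mpc2 was higher and Mpc1 lower with crotonate. Mpc2 stood at 38.6, 43.1, 39.1 and 40.3 TPM in control, at 53.9, 54.2, 46.1 and 53.4 TPM with crotonate and at 41.0, 42.5, 45.9 and 47.0 TPM with MS-275. The crotonate libraries of Mpc2 lay above all controls (0.36 ± 0.06, adjusted p = 5.42e-04), and MS-275 overlapped them (0.13 ± 0.06, adjusted p = 0.0966). Mpc1 stood at 304, 284, 286 and 283 TPM in control, at 274, 257, 271 and 273 TPM with crotonate and at 314, 293, 292 and 326 TPM with MS-275. The crotonate libraries of Mpc1 lay below all controls by a small margin (-0.11 ± 0.04, adjusted p = 0.0476), a call that was lost on leaving out any 1 of the 8 control or crotonate libraries, or MS-275 replicate 1 (adjusted p up to 0.136).

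The share of each isoenzyme in the summed TPM of its family describes these levels within a library, and no test was made of it. Ldhb made up 18.2% ± 0.553 of Ldha and Ldhb in control (SD, n = 4), 29.0% ± 3.09 with crotonate and 26.8% ± 1.14 with MS-275, against 47.5% in the forebrain. The Hk2 share of both hexokinases was 13.6% ± 1.33 in control, 11% ± 1.16 with crotonate and 4.42% ± 0.504 with MS-275, against 24.5% in the forebrain. Eno2 took 1.03% ± 0.0977 of the enolases in control, 2.80% ± 0.445 with crotonate and 3.14% ± 0.673 with MS-275, and Eno3 took 0.391% ± 0.101, 0.954% ± 0.224 and 1.40% ± 0.186, so that Eno1 stayed the bulk of enolase mRNA in all groups. Slc2a3 made up 43.5% ± 1.94 of both glucose transporters in control, 60.9% ± 3.79 with crotonate and 53.2% ± 2.61 with MS-275, against 19.6% in the forebrain. Slc16a3 held 2.46% to 31.4% of both lactate transporters in the control libraries. After crotonate it held 12.8% to 29.8%, and after MS-275 37.5% to 47.8%. The Aldoc share was 8.86% ± 2.06 in control, 5.48% ± 1.06 with crotonate and 10.9% ± 2.40 with MS-275, and the Mpc2 share was 12.2% ± 0.801, 16.2% ± 1.19 and 12.6% ± 0.842. Over all 32 members the summed level was 7998 ± 548 TPM in control, 7252 ± 304 with crotonate and 7862 ± 292 with MS-275, of which Gapdh was the largest part in each group.

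**Figure D3:**
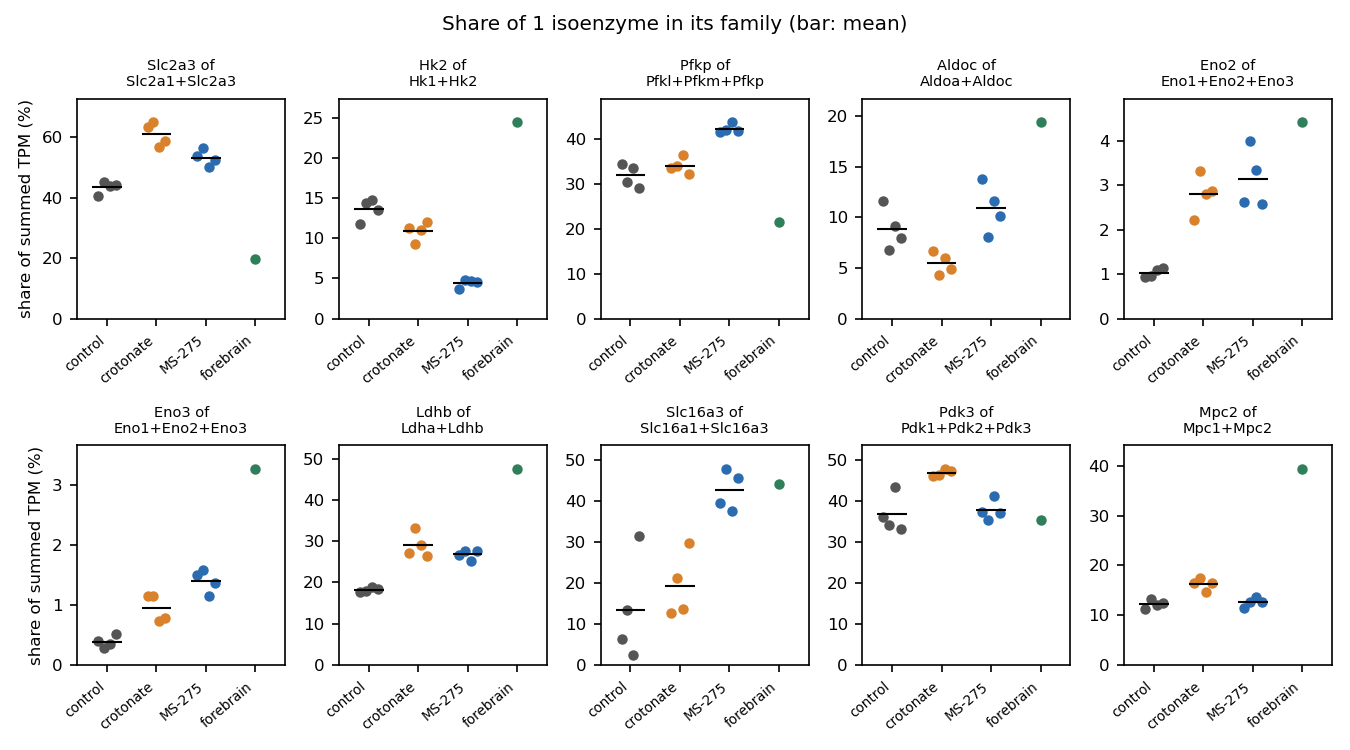
Share of 1 isoenzyme in the summed TPM of its family, in percent, for each NSPC library (4 per group, bar at the mean) and the single forebrain library. Each axis starts at 0. The Ldhb share lies between 17.6% and 18.9% in control and at 25.2% or more in every treated library, and the Hk2 share is at most 4.77% with MS-275.

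The direct comparison of MS-275 with crotonate tested where the agents differed. Here 14 members were higher with MS-275 and 4 lower, while 19.3% of all genes were higher and 27.4% lower, and the libraries of 15 members did not overlap, against 43.3% of all genes. Higher with MS-275 were among others Slc16a3 (1.52 ± 0.52, adjusted p = 0.0303), Slc2a1 (0.76 ± 0.11, adjusted p = 1.01e-04), Pfkfb4 (0.70 ± 0.11, adjusted p = 3.35e-04) and Eno3 (0.70 ± 0.19, adjusted p = 0.00824). So were Aldoc (0.68 ± 0.20, adjusted p = 0.0132, overlapping), Gpi1 (0.49 ± 0.12, adjusted p = 0.00487) and Pfkp (0.42 ± 0.06, adjusted p = 5.92e-05). The 4 lower members were Hk2 (-1.03 ± 0.09, adjusted p = 2.01e-06), Aldoa (-0.38 ± 0.05, adjusted p = 1.37e-04), Mpc2 (-0.23 ± 0.06, adjusted p = 0.00981, overlapping, and 0.0707 after quantile normalization) and Pdk3 (-0.20 ± 0.06, adjusted p = 0.0162). For Ldha the difference was 0.01 ± 0.06, with an interval from -0.12 to 0.13. With the replicate block the adjusted p of Slc2a3 in this comparison was 0.0514, against 0.0465 without it, and that of Gapdh was 0.0206, against 0.168. The call of Slc16a3 was lost without crotonate replicate 1 or 3, or MS-275 replicate 1, 2 or 4 (adjusted p up to 0.0798). That of Slc2a3 was lost without control replicate 2, or crotonate replicate 2, 3 or 4, or MS-275 replicate 1, 2 or 3 (adjusted p up to 0.126). That of Hk1 was lost without crotonate replicate 4, or MS-275 replicate 1 or 2 (adjusted p up to 0.0749), and that of Pdk2 without crotonate replicate 2 or 4, or MS-275 replicate 1, 2 or 4 (adjusted p up to 0.0926). Without control replicate 4 Pdk1 passed as higher with MS-275 than with crotonate (0.55, adjusted p = 0.0396, against 0.138). Eno2 passed without crotonate replicate 2, MS-275 replicate 1 or MS-275 replicate 4 (adjusted p down to 0.0374), Ldhb without crotonate replicate 1 (0.0408) and Pfkm without MS-275 replicate 1 (0.0370).

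Lists of neighbouring pathways, chosen with earlier results of these data known, were counted in the same fit. The shares of all genes to read them against are 32.3% higher and 15.9% lower with crotonate, and 37.4% and 27.6% with MS-275. Of 15 tested further isoforms of glycolysis and lactate handling 9 were higher and 1 lower with crotonate, and 10 higher and 1 lower with MS-275. Emb, a chaperone of lactate transporters, rose from 5.77 to 12.7 TPM with crotonate (1.02 ± 0.09, adjusted p = 1.93e-06), and Bsg, its main relative, rose from 281 to 358 TPM with MS-275 (0.35 ± 0.03, adjusted p = 9.38e-07). Adpgk, an ADP-dependent glucokinase, fell from 24.6 to 20.3 TPM with crotonate (-0.26 ± 0.07, adjusted p = 0.00992) and to 18.1 TPM with MS-275 (-0.42 ± 0.07, adjusted p = 2.11e-04). After quantile normalization the counts of this list were 4 higher and 2 lower with crotonate and 9 higher and 2 lower with MS-275. Another list held the serine branch, which leaves glycolysis at phosphoglycerate, and folate enzymes downstream of it. Of its genes 6 of 8 were lower with crotonate and 8 of 8 with MS-275, with none higher. Psat1 fell from 302 to 153 TPM with MS-275 (-0.98 ± 0.04, adjusted p = 1.28e-09), and Mthfd2 fell from 48.4 to 29.3 TPM with crotonate (-0.70 ± 0.06, adjusted p = 1.66e-06). Of 17 genes of the glycogen and hexosamine branches 9 were higher and none lower with crotonate, and 9 higher and 2 lower with MS-275, among them the liver-type phosphorylase Pygl with crotonate (1.63 ± 0.13, adjusted p = 1.18e-06) and the hexosamine enzyme Gfpt2 with MS-275 (1.31 ± 0.07, adjusted p = 1.44e-08). With median-of-ratios scaling the crotonate count of the glycogen and hexosamine list was 5 higher and 1 lower, and after quantile normalization 9 higher and 3 lower.

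Of 18 genes of the tricarboxylic acid cycle 6 were higher and 7 lower with crotonate, and 4 higher and 12 lower with MS-275. Ogdhl rose with both agents, from 24.1 to 56.7 TPM with crotonate (1.20 ± 0.05, adjusted p = 6.18e-09) and to 55.7 TPM with MS-275 (1.17 ± 0.05, adjusted p = 8.74e-10), and Fh1, fumarate hydratase, fell from 72.3 to 50.7 TPM with MS-275 (-0.50 ± 0.05, adjusted p = 7.63e-07). With median-of-ratios scaling the crotonate count of the cycle was 1 higher and 9 lower, and after quantile normalization it was 7 higher and 4 lower. Of 8 genes of the pyruvate dehydrogenase complex and its phosphatases none was higher and 1 was lower with crotonate, or 2 lower with the replicate block, 6 with median-of-ratios scaling and 4 with quantile normalization. With MS-275 1 was higher and 5 were lower, or 3 lower after quantile normalization. The higher one was the phosphatase Pdp1, which reverses the PDK kinases (5.28 to 11.6 TPM, 1.00 ± 0.09, adjusted p = 6.44e-07). Among 9 genes of the NADH shuttles 5 were higher and 3 lower with each agent, and with median-of-ratios scaling 1 was higher and 3 lower with crotonate and 3 higher and 3 lower with MS-275. After quantile normalization 4 NADH shuttle genes were higher and 1 lower with MS-275. Of 10 pentose phosphate genes 3 were higher with each agent, and 3 were lower with crotonate and 4 with MS-275, and of 3 gluconeogenesis genes 1 was higher and 1 lower with crotonate, and 2 higher and 1 lower with MS-275. The crotonate count of gluconeogenesis was 0 higher and 2 lower with median-of-ratios scaling and 1 higher and 2 lower after quantile normalization. Of 26 hypoxia response genes 9 were higher and 6 lower with crotonate, or 7 and 8 with median-of-ratios scaling and 8 and 7 after quantile normalization. With MS-275 8 hypoxia genes were higher and 6 lower, or 8 and 9 with median-of-ratios scaling and 9 and 7 after quantile normalization. Among them was Epas1, a subunit of hypoxia-inducible factors, which was higher with both (4.56 to 13.6 TPM, 1.40 ± 0.06, adjusted p = 1.34e-08, and to 16.8 TPM, 1.68 ± 0.06, adjusted p = 6.86e-10). Among 17 regulators of energy metabolism 4 were higher and 2 lower with crotonate and 5 higher and 2 lower with MS-275, or 3 higher and 4 lower and 4 higher and 6 lower with median-of-ratios scaling. After quantile normalization the regulators were 4 higher and 4 lower with crotonate and 3 higher and 3 lower with MS-275. Txnip, which is induced by glucose and restrains its uptake, rose from 8.10 to 31.0 TPM with crotonate (1.82 ± 0.12, adjusted p = 2.04e-07) and to 43.3 TPM with MS-275 (2.29 ± 0.12, adjusted p = 6.81e-09).

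In forebrain explants the authors' deposited table of crotonate against control, whose direction is given only by the table's name, had 3 members higher and 13 lower of 32. Of the genes in the authors' deposited table with an adjusted p, 10.5% of 14507 were higher and 9.75% lower, and the median log2 fold change was -0.15 for members and 0.00 over all these genes. The table holds no values per library. In the authors' deposited table the largest decreases past the threshold were those of Pfkfb3 (-0.55 ± 0.04, adjusted p = 1.90e-48) and Slc2a1 (-0.54 ± 0.04, adjusted p = 2.41e-34). Next in the authors' deposited table came Slc16a1 (-0.36 ± 0.09, adjusted p = 0.00104), Gpi1 (-0.34 ± 0.03, adjusted p = 1.63e-37), Pgam1 (-0.34 ± 0.03, adjusted p = 1.36e-27) and Hk2 (-0.32 ± 0.07, adjusted p = 8.41e-05). Further decreases in the authors' deposited table were those of Aldoa (-0.28 ± 0.02), Tpi1 (-0.25 ± 0.02), Pfkl (-0.24 ± 0.03), Pgk1 (-0.20 ± 0.02), Eno2 (-0.20 ± 0.06), Ldha (-0.18 ± 0.02) and Pkm (-0.15 ± 0.01), each with an adjusted p of 0.00315 or less. The members higher in the authors' deposited table were Aldoc (0.30 ± 0.04, adjusted p = 2.06e-13), Mpc2 (0.25 ± 0.07, adjusted p = 0.00149) and Mpc1 (0.19 ± 0.07, adjusted p = 0.0210). Aldoa has a second row in the authors' deposited table, a separate gene model with a mean normalized count of 38.1, and the row with a mean of 4890 was used.

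Between NSPCs and explants 9 of 32 members were called for crotonate in both, the explant calls being those of the authors' deposited table, against 11.3% of all genes in both tables. For 6 of them, Pfkfb3, Pgk1, Pgam1, Pkm, Ldha and Mpc2, the direction was the same, and for Aldoc, Eno2 and Mpc1 it was opposite, where 60.8% of all genes called in both had the same direction. Aldoc was at -0.84 in NSPCs and at 0.30 in the authors' deposited table, and Eno2 at 1.31 and -0.20. For Slc2a3, at 1.19 in NSPCs, the authors' deposited table gave -0.11 ± 0.06 (adjusted p = 0.215), and for Ldhb, at 0.42 in NSPCs, it gave -0.03 ± 0.03 (adjusted p = 0.549). The NSPCs and explants differ in strain and in culture, and whether the responses differ was not tested. Hypoxia response genes in the authors' deposited table were lower for 13 of 26 and higher for 6, with Vegfa (-0.95 ± 0.04, adjusted p = 1.86e-143) and P4ha1 among the lower (-0.51 ± 0.06, adjusted p = 1.91e-18). All 5 erythroid markers with an adjusted p in the authors' deposited table were lower, with a median of -0.44, and 9 of 10 proliferation markers were lower, with a median of -0.21. In the authors' deposited table, of 10 neural progenitor markers 6 were lower and 1 higher, with a median of -0.13. The part of red cells, progenitors, proliferation or cell number in the explant values was not tested.

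**Figure D4:**
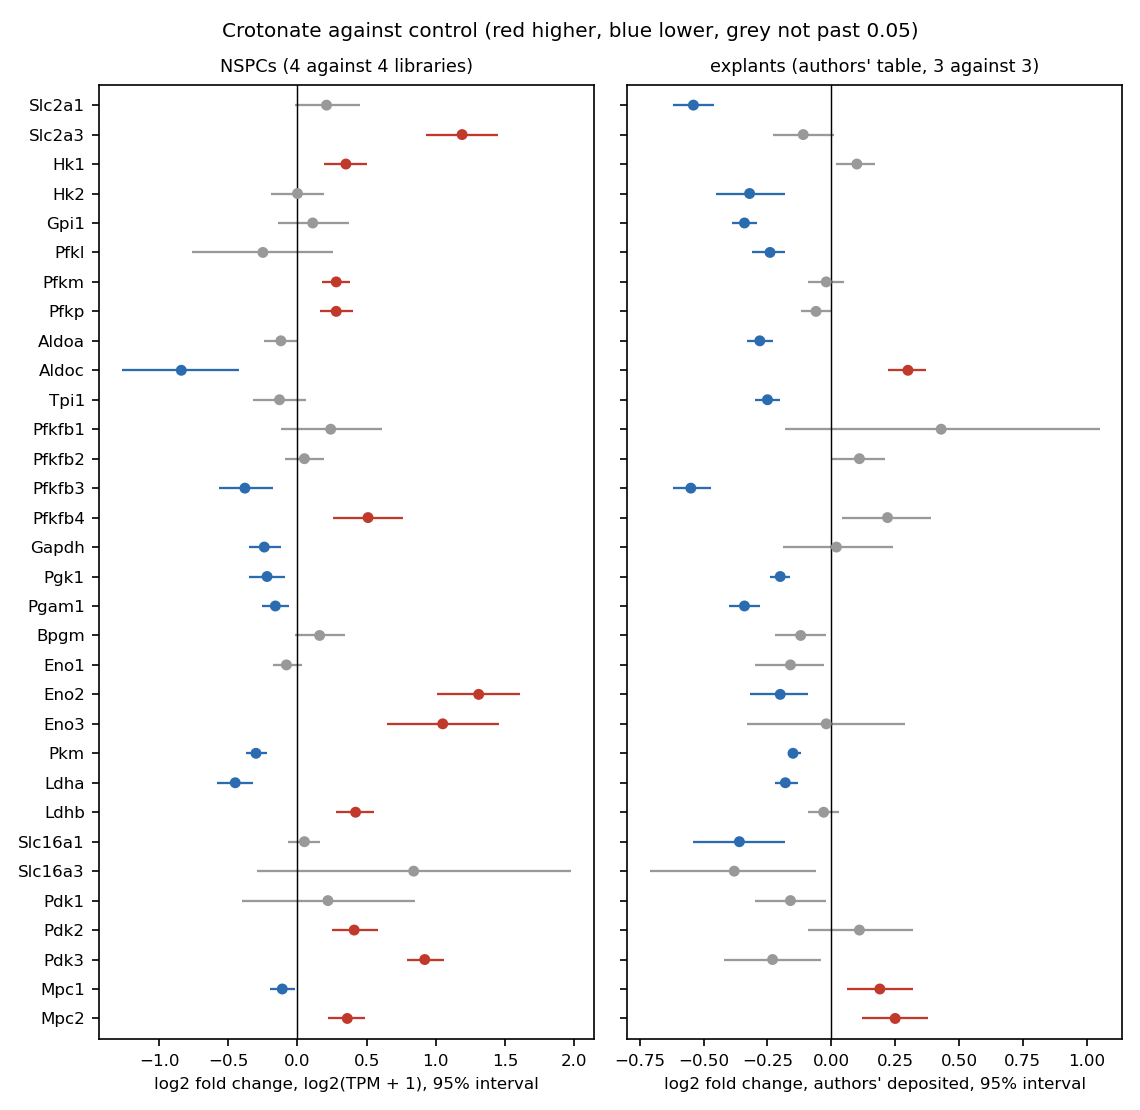
Log2 fold change of the 32 genes for crotonate against control in NSPCs (left, log2(TPM + 1) scale, 4 against 4 libraries) and in explants from the authors' deposited table (right, DESeq2, 3 against 3 libraries), with 95% intervals. Red is higher, blue lower and grey not past 0.05, and the axes differ in range. Blue predominates on the right with 13 members, and Aldoc and Eno2 have opposite colours in the panels.

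In the untreated forebrain, 12 members lay above the range of the 4 control NSPC libraries, 14 below it and 6 within it, where 51.6% of all tested genes lay above and 33.6% below. With 1 forebrain library no test was made. Pfkfb4 was 10.2 times the control mean at 18 TPM, Eno3 3.53 times at 13.7 TPM and Slc2a1 2.48 times at 49.0 TPM. Below the control range were the main enzymes Gpi1 (142 TPM, 0.259 times the control mean), Aldoa (229 TPM, 0.320 times), Eno1 (388 TPM, 0.400 times) and Ldha (290 TPM, 0.425 times), together with Slc16a1 (10.2 TPM, 0.319 times) and Mpc1 (93.5 TPM, 0.323 times). Gapdh was above it at 2422 TPM, 1.38 times the control mean. Red cell markers summed to 7228 TPM in the forebrain and to at most 1.14 TPM in the control libraries, and their part in the forebrain levels was not tested.

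Peaks were assigned to a gene where they overlapped it or the 1 kb on either side by at least 1 base, and each list comes from 1 library, so no test was made. A window can also hold the start of a neighbouring gene. In the forebrain all 32 members had an H3K9ac peak, against 32.6% of all genes with a position and 88.2% of those tested in NSPCs, and 30 had an H3K9cr peak, against 27.1% and 78.1%. Slc16a3 and Pdk2 lacked an H3K9cr peak. The fold enrichment of a member's strongest H3K9ac peak, the authors' own value, ran from 4.47 at Slc16a3 to 54.1 at Pfkfb2 with a median of 16.1, and that of H3K9cr from 3.17 at Pfkp to 24.1 at Pfkfb2 with a median of 7.58. Of the promoters printed above, the windows of Eno2, Pfkfb4, Hk2 and Slc2a1 were overlapped by an H3K9ac peak in the forebrain, and that of Eno2 by an H3K9cr peak as well. In NSPCs the Eno2 window was overlapped by a Kac and a Kcr peak in both the control and the crotonate lists.

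In control NSPCs 24 members had a Kac peak, against 25.9% of all genes and 73.0% of the tested genes, and 21 had a Kcr peak, against 22.5% and 64.6%. With crotonate 24 had a Kac peak, against 26.2% and 70.3%, and 25 had a Kcr peak, against 27.8% and 74.7%. With MS-275 7 had a Kac peak, against 9.76% and 25.4%, and 11 had a Kcr peak, against 8.90% and 23.4%. The MS-275 lists were shorter as a whole, with 7555 Kac and 5845 Kcr peaks against 23427 and 17669 in control, and the NSPC lists hold positions alone, so a peak missing from a list is not a measured loss. Slc2a1, Pfkp, Pfkfb4, Pgk1 and Pdk3 had no peak in any of the 6 NSPC lists. Each had an H3K9ac and an H3K9cr peak in the forebrain. The share of all genes without a peak in any of the 6 NSPC lists was not counted. A Kcr peak was missing in both control and crotonate for 6 members, against 19.5% of tested genes. For Kac this held for 7 members, against 18.6%. The NSPC marks are not limited to lysine 9 of histone H3, so the forebrain and NSPC lists are not of the same marks.

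Of the tested genes 15.9% had a Kcr peak with crotonate but not in control, and so did 5 members: Hk2, Pfkl, Pkm, Slc16a3 and Mpc1. The peak at Slc16a3 lay at chr11:120948828-120949306 (GRCm38), over 239 of the 250 promoter bases printed above with both ACGTG runs, and Slc16a3 RNA was 4.84 to 14.5 TPM with crotonate against 0.835 to 14.2 TPM in control. At Hk2 the peaks of the crotonate list lay at chr6:82772792-82773026 and chr6:82773379-82773670, inside the gene, and Hk2 RNA did not pass the test with crotonate. Pkm and Mpc1, each with such a peak within 1 kb of a start, were lower with crotonate. The call of Mpc1 (adjusted p = 0.0476) was lost on leaving out any 1 control or crotonate library. The crotonate Kcr list was longer as a whole, with 23301 peaks against 17669 in control, so a peak in it alone is not a measured gain. Only Pgam1 had its Kcr peak in control alone, as did 5.82% of tested genes. For Kac the crotonate list had a peak at Pdk2 that control lacked (8.40% of tested genes) and lacked the 1 at Pfkfb1 (11.1%). With MS-275 1 member, Pkm, had a Kcr peak that control lacked (3.41% of tested genes) and 11 had one in control alone (44.6%). For Kac no member had a peak in the MS-275 list alone (2.12%), and 17 had one in control alone (49.8%).

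**Figure D5:**
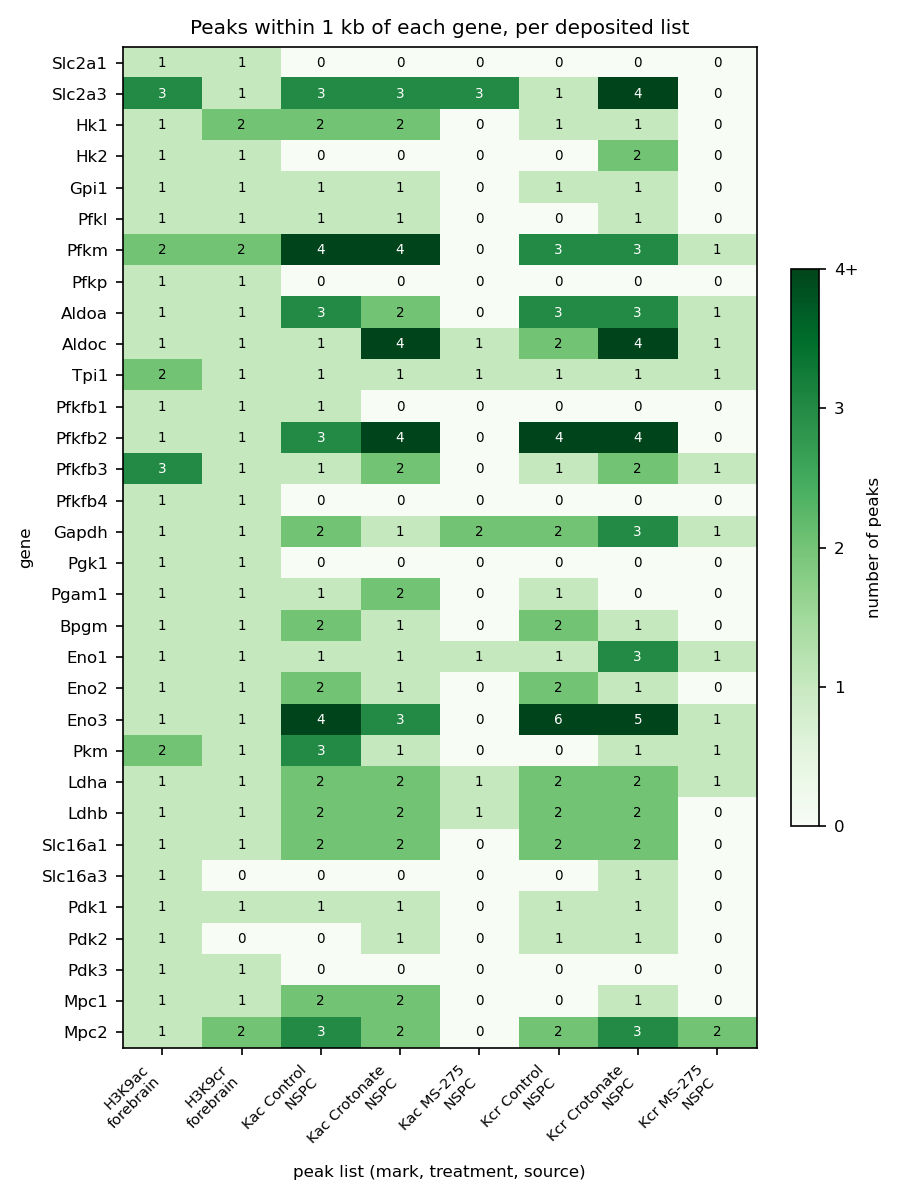
Number of peaks within 1 kb of each of the 32 genes (rows) in the 2 forebrain and 6 NSPC peak lists (columns, mark, treatment and source), with darker green for more peaks. The forebrain columns are filled but for Slc16a3 and Pdk2 in H3K9cr, the MS-275 columns are filled for 7 and 11 genes, and the rows of Slc2a1, Pfkp, Pfkfb4, Pgk1 and Pdk3 are at 0 in every NSPC list. The share of all genes at 0 in every NSPC list was not counted.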

How the data were processed

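RNA levels were deposited as TPM by the authors, quantified with Salmon 1.0.0 per the submitters' processing notes, and the 12 NSPC libraries were compared on log2(TPM + 1). Genes that reached 1 TPM in 4 or more of these libraries were fitted together with limma 3.58.1 in R 4.3.3 (3 groups, trended variances), and p-values were adjusted over 14857 genes by the Benjamini-Hochberg method. Intervals are at 95%. No read counts per library were used, so depth and counting error are unknown. The labels call the libraries biological replicates, and p-values measure the spread between them. Replicate numbers in the labels were checked for pairing: same-numbered libraries of different groups had correlated deviations from the group means (12 pairs, r from 0.119 to 0.241), while 36 other pairs had r from -0.197 to 0.0993, so the fit with a replicate block was also run.

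The explant log2 fold changes, their standard errors and adjusted p-values are the authors' own, from the deposited table made with DESeq2 1.26.0, per the submitters' processing notes. It holds one normalized mean count, a score that is not a raw count, per gene, and intervals are 1.96 SE. Peak positions are the authors' MACS2 2.2.5 calls on GRCm38 after Bowtie2 2.3.5.1, per the submitters' processing notes, and the deposited forebrain lists add the fold enrichment, the −log10 q-value and the signal of each peak. Peaks were assigned with bedtools 2.31.1 to RefSeq genes (GRCm38.p6), which gave a position to 13775 tested genes (92.7%). Tables and figures were made with Python 3.11.15, pandas 2.3.3, numpy 2.4.6 and matplotlib 3.10.9.

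The members, pathway lists and marker lists were chosen with earlier results of these data known. Per-library values are given for members called at a log2 fold change of at least 0.5 in size with either agent against control, or called in explants, except that Tpi1 and Pdk1 with MS-275 are given by a mean or a range, and the others are given by ranges or fold changes, with Ldhb added after its values were seen because it pairs with Ldha. From each pathway list, genes are named from up to 2 per direction and comparison with the smallest adjusted p. Alternatives were another pseudocount, other filters and scalings, no variance trend, 2 groups alone, the block and leaving out each library. DNA methylation is not analysed here.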

Additional observations from a re-analysis of the deposited data

Results flagged for a closer look

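In 7 of 96 sets of 4 NSPC libraries (32 members in 3 groups), 1 library lay far from the other 3 by Dixon's criterion on the gap relative to the whole range, at 95%. Chance gives about 1 in 20 such sets. Slc2a1 stood at 24.8 TPM in NSPC control replicate 4 against 17.3 to 18.5 TPM in the other controls. Pfkm at 68.1 TPM and Mpc1 at 304 TPM were high in NSPC control replicate 1, where the others had 63.1 to 63.5 and 283 to 286 TPM. Pfkfb2 was low in NSPC control replicate 2 at 14.2 TPM against 16.4 to 16.8 TPM. With crotonate Hk1 was low in replicate 4 at 70.8 TPM against 79.8 to 80.9 TPM, and Mpc2 was low in replicate 3 at 46.1 TPM against 53.4 to 54.2 TPM. With MS-275 Ldhb was low in replicate 3 at 163 TPM against 187 to 191 TPM.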

How the results depend on the processing

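Of the members called, 15 of 19 with crotonate, 17 of 22 with MS-275 and 13 of 18 between the agents were called in every alternative fit that tested them. Pfkfb4 was not tested under the stricter filter of 5 TPM, so that fit says nothing about its calls. The numbers of members higher and lower were 10 to 13 and 6 to 11 with crotonate, 13 to 18 and 6 to 8 with MS-275, and 10 to 15 and 3 to 5 between the agents. Over all genes the crotonate count of higher genes was 3091 after quantile normalization, against 4796, and that of lower genes was 4213 after median-of-ratios scaling and 3685 after quantile normalization, against 2356. Among members only Pfkfb1 reversed, with a log2 fold change for MS-275 of -0.45 after quantile normalization (adjusted p = 0.0337) against 0.03. The causes were not tested. Other calls gained under another scaling were Aldoa, Eno1 and Tpi1 with crotonate (median-of-ratios), Hk2 with crotonate and Eno1, Mpc1, Mpc2 and Pgk1 with MS-275 (quantile), and Eno2 between the agents (both). With the replicate block 11 members were higher and 11 lower with crotonate, and it changed no member's call other than those of Aldoa, Eno1 and Tpi1 with crotonate, Aldoc and Eno1 with MS-275, and Gapdh and Slc2a3 between the agents. No paired analysis was possible for explants because their table gives means and comparisons without single libraries. The explant counts stayed at 3 higher and 13 lower with both other adjustments. Members with an H3K9cr peak in the forebrain fell from 30 to 21 at −log10 q of at least 10, and members with an MS-275 peak ranged from 6 to 10 for Kac and 10 to 13 for Kcr over the peak windows tried. Depth is unknown, so its limits on low genes such as Pfkfb4 and Slc16a3 could not be given.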
